A study of Mus musculus with 2 samples.

Results

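NF-kappaB is a family of transcription factors that wait in the cytoplasm, bound to IkappaB inhibitor proteins, until a cytokine, microbial product or antigen receptor signal triggers the destruction of the inhibitor. The freed dimers enter the nucleus, bind short kappaB sites and switch on inflammatory and survival genes, and among their targets are the genes of the inhibitors and enzymes that shut the pathway off again. In the brain this pathway is best known from microglia, astrocytes, vessel walls and immigrant leukocytes. The genes described here are 10 members of this circuit: the DNA-binding subunits Nfkb1, Nfkb2, Rela and Relb, the IkappaB-type proteins Bcl3, Nfkbia and Nfkbiz, and the target genes Tnfaip3, Tnfaip2 and Birc3. They were chosen by gene name, as every non-control probe of the array that carries one of these names, and all 10 were among the 37068 gene names on the array.

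The study measured total RNA from the olfactory bulb, the first relay of smell in the brain, of 1 control mouse housed with a standard odor environment and 1 mouse housed with an enriched one. Each RNA was labelled with Cy3 and hybridised to 1 Agilent array. One label calls the tissue bulb neurons while the source is the bulb itself, and no sorting step is described. The labels used here state no strain, sex, age, odor or length of exposure. With 1 array per condition there was no replicate, no test between conditions could be made, and every comparison below is between these 2 arrays. All values are log2 signals relative to the array's 75th percentile, and all differences are odor enriched minus control.

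Both arrays carried 59305 spots that were not controls. Of the control array's spots 73.7% were well above background, and of the odor-enriched array's 67.6%. Of 23872 genes measured on both arrays, the median difference was 0.00. All 8 markers of bulb neurons were measured on both arrays, and so were all 8 markers of microglia and macrophages, all 7 of endothelium and all 5 of astrocytes, so the RNA held transcripts of many cell types. The endothelial list stood at a median difference of 1.80, and 6 of its 7 genes were higher by 2-fold or more. The highest were Emcn (3.10), Flt1 (1.95) and Tek (1.93), and the lowest Kdr (1.71), Pecam1 (1.09) and Cldn5 (0.71). For T and NK cells the median was 3.82, 7 of the 8 genes measured exceeded 2-fold, and Ncr1 was not well above background on either array. The highest were Nkg7 (4.94), Gzmb (4.18) and Cd3g (4.16), and the lowest Cd8a (3.36), Cd3e (1.44) and Prf1 (0.58). Control signals of these genes ran from -5.40 to -1.18, and odor-enriched signals from -2.04 to 3.18. Other lists were lower: ensheathing glia had a median of -1.59 with 4 of 5 genes 2-fold or more below the control, sensory axons -0.92 with 2 of 4, astrocytes -0.60 with 1 of 5 and bulb neurons -0.40 with 1 of 8. In bulk RNA, more or fewer cells of a type and more or less RNA per cell cannot be told apart.

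The kappaB site is the DNA sequence through which this circuit regulates its own genes, so the promoters are shown first. RefSeq windows of 300 bases on GRCm38.p6, from 250 before to 50 after a start site, were found for 7 of the 10 genes, with 10 start sites in all. The 10-base kappaB consensus was searched on both strands. It was present in 6 of the 10 windows and in 4 of the 7 genes: Nfkbia, Tnfaip3, Bcl3 and Nfkb2. Of all 32851 promoter windows in the table, 4.51% held a match. The stretches below run from position -150 to 20 around a start site, in the direction of the gene, with kappaB matches in capitals.
Nfkbia, chr12:55492628-55492797, minus strand: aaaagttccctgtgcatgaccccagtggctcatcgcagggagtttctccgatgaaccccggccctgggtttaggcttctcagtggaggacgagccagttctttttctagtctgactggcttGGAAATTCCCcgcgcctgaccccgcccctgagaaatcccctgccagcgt
Tnfaip3 (the first of its start sites), chr10:19015391-19015560, minus strand: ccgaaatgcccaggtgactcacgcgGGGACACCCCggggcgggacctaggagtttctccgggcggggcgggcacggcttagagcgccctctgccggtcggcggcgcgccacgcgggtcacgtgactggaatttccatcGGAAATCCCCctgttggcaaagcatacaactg
Bcl3, chr7:19822736-19822905, minus strand: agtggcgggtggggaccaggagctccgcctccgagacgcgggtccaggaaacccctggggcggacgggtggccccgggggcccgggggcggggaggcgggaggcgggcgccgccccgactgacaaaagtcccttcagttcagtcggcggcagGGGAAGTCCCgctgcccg
Nfkb2 (the first of its start sites), chr19:46304587-46304756, plus strand: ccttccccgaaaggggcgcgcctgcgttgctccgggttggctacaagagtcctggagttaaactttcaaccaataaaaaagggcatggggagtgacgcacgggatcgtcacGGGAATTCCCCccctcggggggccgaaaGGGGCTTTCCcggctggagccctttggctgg
Birc3, chr9:7873151-7873320, minus strand: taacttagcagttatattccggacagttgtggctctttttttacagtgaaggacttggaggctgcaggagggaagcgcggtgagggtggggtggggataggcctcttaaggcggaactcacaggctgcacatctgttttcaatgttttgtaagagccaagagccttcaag

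In Nfkbia, which encodes IkappaBalpha, the main inhibitor and a classic target of NF-kappaB, the match lay at -29 to -20 from the start site on the antisense strand. Tnfaip3, which encodes the ubiquitin-editing enzyme A20, had a match at -12 to -3 on the antisense strand and another at -125 to -116 on the sense strand. The Bcl3 match lay just inside the transcript, at bases 3 to 12. Nfkb2 had overlapping matches on both strands at -39 to -29 from its first start, and a further match at -11 to -2. The windows of its other start sites overlap and share a match. The windows of Birc3, Tnfaip2, Rela and the other Tnfaip3 start held none, which says only that these letters are absent from these windows.

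**Figure D1:**
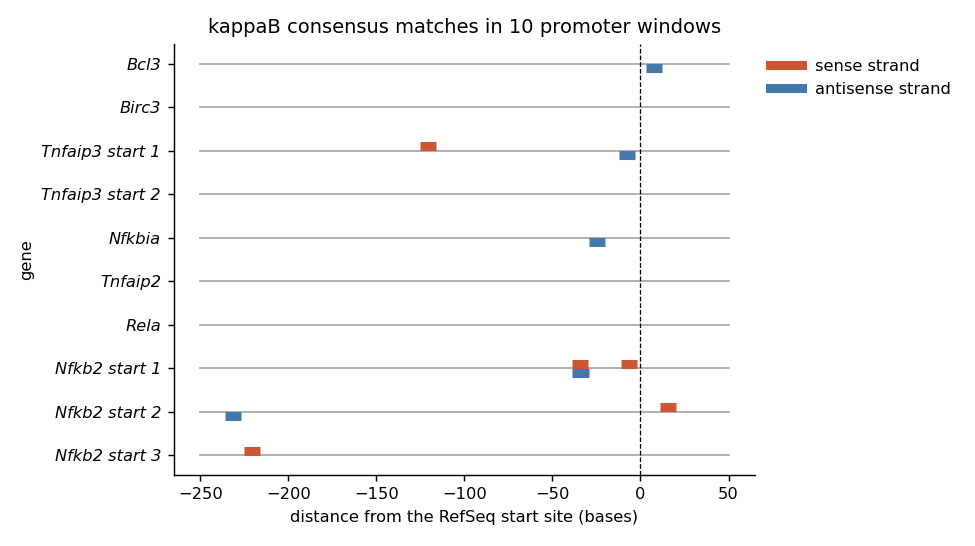
Position of kappaB consensus matches in the 10 RefSeq promoter windows of 7 genes. The x axis is the distance in bases from the start site (dashed line), grey lines are the windows, and coloured bars are matches on the sense (red) and antisense (blue) strand. The matches of Nfkbia, Bcl3, and the first starts of Tnfaip3 and Nfkb2 include one within 40 bases of the start, and 4 windows hold none.

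A match in the promoter did not separate the genes of this array by much. Among 13196 measured genes with a promoter entry, the 810 with a kappaB consensus match had a median difference of -0.04 and the others -0.05. At least 2-fold higher were 12.3% of the former and 9.69% of the latter. These are descriptions across genes, which are not replicates.

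In the odor-enriched bulb, several inhibitor and target genes of NF-kappaB stood well above the control, and the genes of its DNA-binding subunits stood nearer to it. Of the 10 genes, 4 were at least 2-fold higher: Tnfaip3, Bcl3, Birc3 and Nfkbia. The same was true of 11.5% of all 23872 genes measured. None of the 10 was at least 2-fold lower, against 5.52% of all genes. The median difference of the 10 genes was 0.73, and all 10 differences were above 0, compared with 50.1% of all genes. The 6 inhibitors and targets had a median of 1.40 and the 4 subunits 0.36, a grouping by known role that was made with these values known. The groups overlap: the subunit gene Nfkb2 (0.76) stood above Nfkbiz (0.70) and Tnfaip2 (0.70). The roles overlap too, since Nfkb1 also encodes an inhibitor and Nfkb2 is also a target. These differences are relative to the bulk of the array: scaling on the E1A spike-ins, an alternative added once the data had been seen, shifted the all-gene median by -2.12 and left Tnfaip3 as the only one of the 10 genes above 0. That scaling moves all genes alike and leaves their order as it was. Markers of T and NK cells (median 3.82, 7 of 8 past 2-fold) and of endothelium (1.80, 6 of 7) were higher in the same sample, and those of ensheathing glia (-1.59, 4 of 5) lower; their part in the values of the 10 genes was not tested.

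Tnfaip3 showed the largest difference of the 10 when probes were averaged per gene. With the brightest probe of each gene, Birc3 (3.18) came first. The brightest probe is that with the highest mean signal over both arrays, so its choice uses the odor-enriched value. A20 removes activating ubiquitin chains from signalling proteins upstream of the IkappaB kinase and so ends the response. Its single probe, at base 4302 of the RefSeq transcript (chromosome 10, 18720776 to 18720835, mm9), had a processed signal of 497 in the control mouse and 1941 in the odor-enriched mouse. Normalized, it went from 0.99 to 3.27, a difference of 2.28 ± 0.20 (4.85-fold), at percentile 97.3 of all measured genes. The error is that of the scanner software for 1 spot per array and holds no spread between mice. It combines signal errors of 49.7 in the control mouse and 194 in the odor-enriched mouse. These are close to the same fraction of each signal, so the error is not a measured spread between spots. Under 10 other processing settings (scalings, background correction, source of values, filters and choice of probe) the difference ranged from 2.10 to 2.61.

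The single Nfkbia probe read 4335 in the control mouse and 8702 in the odor-enriched mouse. It spans 496 bases of chromosome 12 (56590945 to 56591440, mm9) with only 60 bases of its own, so it crosses an intron. Its normalized signal went from 4.12 to 5.43, a difference of 1.32 ± 0.20 (2.49-fold). The gene stayed at least 2-fold higher under each of the 10 other processing settings, with 1.11 under normexp background correction as the lowest. Its single probe left the filters and the choice of probe nothing to change, and E1A scaling put it at -0.80.

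Bcl3, an IkappaB-like protein that works in the nucleus as a partner of p50 and p52 homodimers, had 2 probes. The probe for the RefSeq transcript (chromosome 7, 20393826 to 20393885, mm9) went from a processed signal of 198 to 580, or from -0.34 to 1.53 normalized, a difference of 1.86 ± 0.20 (3.64-fold). The other, for an Ensembl transcript, read 0.99 and 1.74 and was not well above background on either array, so it gives no level. All 10 settings kept Bcl3 at least 2-fold higher, the lowest being 1.49 when that dim probe was let in. With 1 measured probe, the choice of probe could not change it, and E1A scaling put it at -0.26.

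Nfkbiz, which encodes another nuclear IkappaB protein, IkappaBzeta, a coactivator needed for late targets such as Il6, was less than 2-fold different. Its more downstream probe went from 0.11 to 0.99 and its more upstream probe from -1.25 to -0.72, differences of 0.87 and 0.53. The mean was 0.70, and another probe, for an Ensembl transcript, was not well above background on either array. The 3 IkappaB-type genes therefore spanned 0.70 to 1.86.

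Birc3, which encodes the ubiquitin ligase and survival factor cIAP2, was the gene whose probes disagreed most. The first 30 of the 60 bases of its 4 probes are given here because the gene's value depends on which of them is read.
Birc3 probe for NM_007464, at 7854409 to 7854468: agaactacaggaccgtcagtgacctcgtta
Birc3 probe for BC011338, at 7856162 to 7856221: acagataatgcccagctaatagaacagggt
Birc3 probe for ENSMUST00000161099, at 7866193 to 7866252: atcaggccttgcatctgggttaccaaaaat
Birc3 probe for ENSMUST00000159672, at 7868669 to 7868728: ttataacttggttgtgaatttgacttctgg

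All lie on the minus strand of chromosome 9 (mm9), so the last of them is the most upstream. The downstream probes went from -2.83 to -2.20 and from -2.33 to -1.76, differences of 0.62 ± 0.21 and 0.57 ± 0.21. The upstream probes, designed on Ensembl transcripts, went from -3.38 to -1.82 and from -2.96 to 0.22, differences of 1.55 ± 0.22 and 3.18 ± 0.21, or 2.93-fold and 9.09-fold. The gene's mean of 1.48 (2.79-fold) therefore rests on the upstream probes, and neither downstream probe was 2-fold different. The gap of 2.62 between the highest and lowest probe was reached by 5.72% of the 699 genes with 4 measured probes. With normexp the Birc3 mean was 0.92, under 2-fold. With the brightest probe alone, by mean signal over both arrays, the gene stood at 3.18. That probe is the most upstream and is brightest through its odor-enriched value (0.22). On the control array the brightest was the probe for BC011338 (-2.33), whose difference was 0.57.

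Tnfaip2, a gene named for its induction by TNF and linked to membrane protrusions, was under 2-fold. Its probes lie close together on chromosome 12 (112692820 to 112693018, mm9), and went from -2.63 to -1.64 and from -1.93 to -1.52. The differences of 0.99 and 0.41 average to 0.70 (1.62-fold). The 3 target genes thus ran from 0.70 for Tnfaip2 to 2.28 for Tnfaip3.

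**Figure D2:**
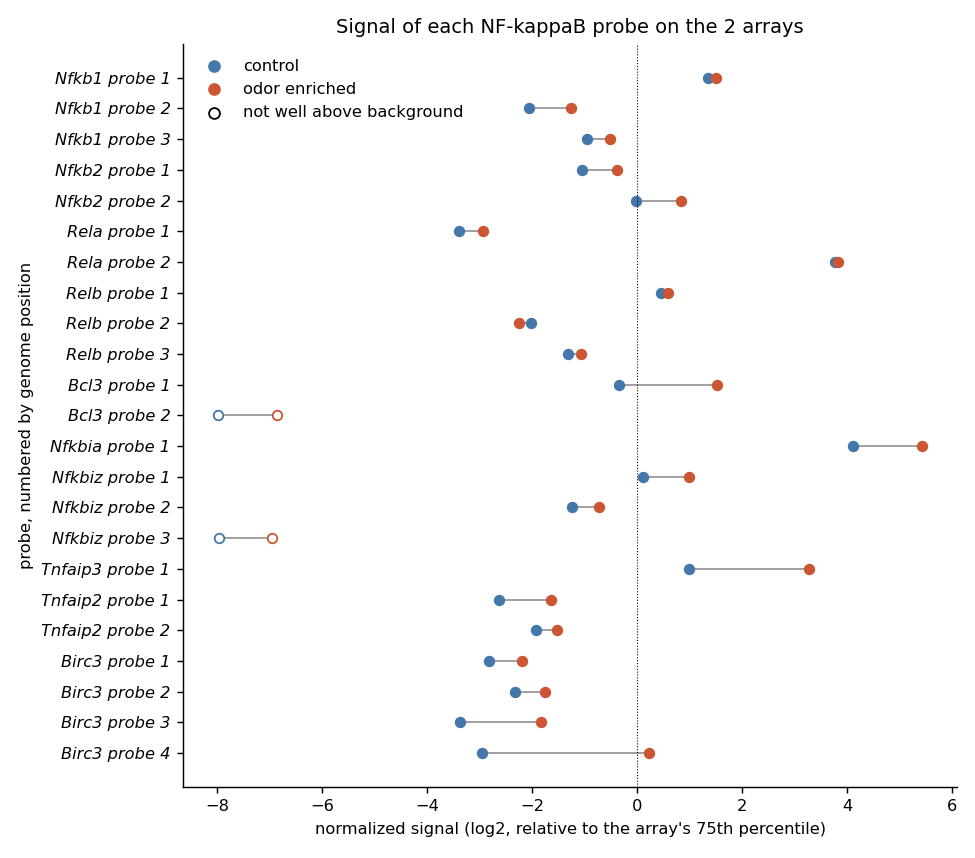
Normalized signal (log2, relative to the array's 75th percentile) of each of the 23 probes on the control (blue) and odor-enriched (red) array, 1 spot each. Open circles mark the 2 probes not well above background. The widest gaps are those of the most upstream Birc3 probe (3.18), Tnfaip3 (2.28) and Bcl3 (1.86), and the signals of different probes cannot be compared with each other.

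Rela encodes p65, which carries the transactivation domain of the classical NF-kappaB dimer. Its downstream probe read 3397 and 2879, control first, which after scaling is 3.76 and 3.84, a difference of 0.07 ± 0.20. The other probe, which crosses an intron, read 23.9 and 26.4 and went from -3.39 to -2.93, a difference of 0.45 ± 0.23. Both fall well short of 2-fold, and the gene's mean was 0.26.

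Nfkb1 encodes p105, the precursor of p50 and itself an inhibitor of the pathway. Its 3 probes differed by 0.15, 0.80 and 0.44 in the order of their positions on chromosome 3 (135247898 to 135275203, mm9), giving a mean of 0.47 with an SD over probes of 0.33. The probe with the largest of these went from -2.06 to -1.25. Relb, the partner of p52 in the noncanonical branch, was the member nearest to 0, with a mean of 0.05 and probes at 0.14, -0.23 and 0.24. That sign is not settled, since Relb stood at -0.12 with median centring and at -0.00047 after quantile normalization.

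Nfkb2 encodes p100, the precursor of p52, and is a known NF-kappaB target as well as a subunit. It had the largest difference of the 4 subunits, 0.76 (1.69-fold). Its probes, 140 and 60 bases of chromosome 19 in span, went from -1.05 to -0.38 and from -0.02 to 0.83. No subunit reached 2-fold. Under the series matrix values, where the all-gene median lay 0.33 higher, Nfkb2 (1.09), Nfkbiz (1.03) and Tnfaip2 (1.03) did pass it.

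**Figure D3:**
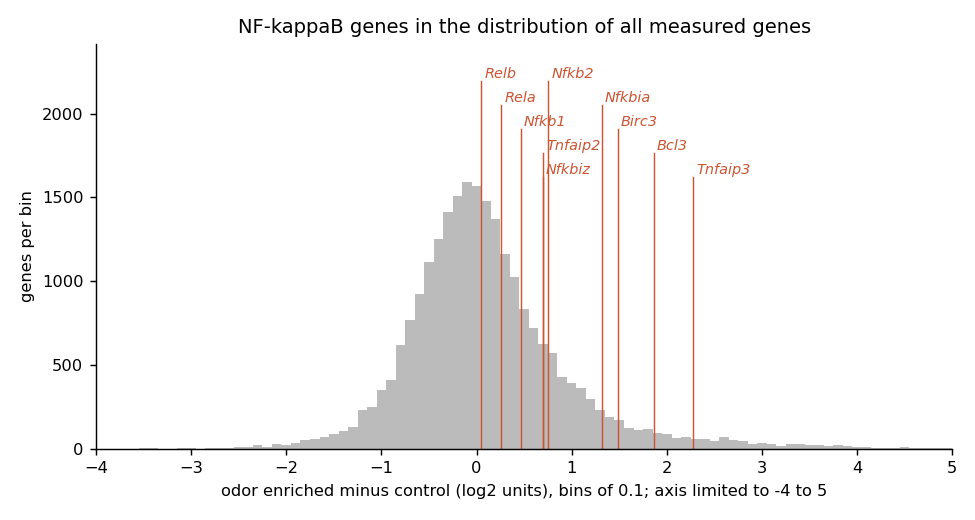
Histogram of the difference (odor enriched minus control, log2 units, bins of 0.1) over 23872 measured genes, with the 10 NF-kappaB genes as red lines whose heights only separate the labels. Relb lies near the peak, and Nfkbia, Birc3, Bcl3 and Tnfaip3 lie beyond 1 in the right-hand tail.

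The spread within the arrays holds no variation between mice, and that between probes, some designed on different transcripts, need not be technical only. Repeat spots of 116 probes had a pooled SD of 0.05, and different probes of a gene a pooled SD of 0.63 over 8234 genes and 0.68 over the 7 NF-kappaB genes with more than 1 measured probe. A set of 10 reference genes ran from Sdha (-0.60) and Gapdh (-0.46) up to Actb (0.72), Hprt (0.74) and B2m (2.19), the last a component of MHC class I as well. Nfkb2 (0.76) lay just above Hprt. Over all 10 reference genes, 9 of the NF-kappaB genes lie within the range and Tnfaip3 (2.28) above it. Without B2m, which was left aside after its value was seen, Relb, Rela, Nfkb1, Nfkbiz and Tnfaip2 lie within the range, and Nfkbia, Birc3, Bcl3 and Tnfaip3 above it. None of the 23 probes was an outlier spot, and the median difference of the spots around them ran from -0.29 to 0.31.

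**Figure D4:**
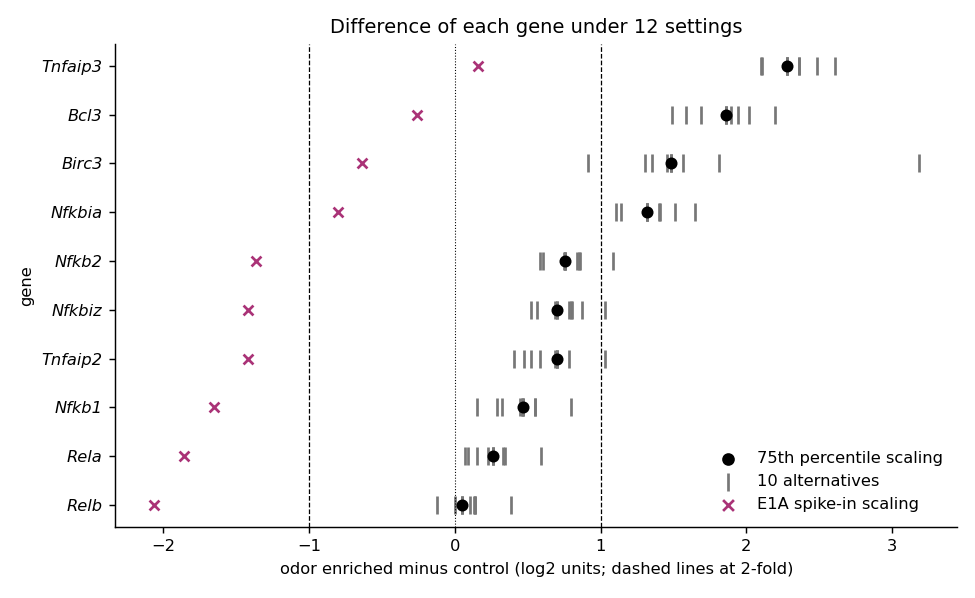
Difference of each gene (odor enriched minus control, log2 units) with 75th percentile scaling (black points), under the 10 other processing settings (grey ticks) and with E1A spike-in scaling (purple crosses). Dashed lines mark 2-fold. Tnfaip3, Bcl3 and Nfkbia stay beyond 2-fold under all 10 settings, and the crosses lie 2.12 to the left of the points.

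Upstream of the subunits, the shared signalling machinery differed little with 75th percentile scaling. Under E1A scaling the values of all genes named from here on lie 2.12 lower, so that most turn negative. Of 24 kinases and adaptors of the canonical branch, 23 were measured, with a median of 0.07. At least 2-fold higher were 2, against 11.5% of all genes, and 0 were as far below, against 5.52%. The IkappaB kinase genes stood at 0.59 for Chuk, 0.16 for Ikbkb and -0.11 for Ikbkg, the signs of Ikbkb and Ikbkg changing between scalings. Among the highest were Malt1 (1.25, and 0.77 with normexp), a protease and scaffold of lymphocyte signalling, and its partner Bcl10 (0.69, with probes at 0.05 and 1.33). The lowest were Tab1 (-0.63), Ticam1 (-0.28) and Irak1 (-0.25), the latter pair turning positive with the series matrix values. Card9 was well above background on the control array only, with no fold that could be bounded. T and NK cell markers, given above, were higher in the same sample, and their part in the Malt1 and Bcl10 values was not tested.

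The noncanonical branch, in which receptors such as CD40 and the lymphotoxin receptor drive processing of p100, had 11 of 12 genes measured. Of these, 3 were at least 2-fold higher, against 11.5% of all genes, and 0 lower, against 5.52%. The median was 0.47. The highest were the receptor Cd40 (2.59) and the ligands Tnfsf14 (2.44) and Ltb (1.90). Cd40 went from -5.24 to -2.65 and Tnfsf14 from -5.00 to -2.56, close to the lowest signals well above background (-5.69 on the control array), and with normexp they stood at 0.78 and 0.77. Ltb went from -0.05 to 1.85 and kept 1.67 with normexp. The lowest were Traf3 (-0.65), which holds the branch in check, Birc2 (-0.25) and Tnfsf13b (-0.18), of which Birc2 and Tnfsf13b changed sign with normexp. Its kinase Map3k14 stood at 0.13 and turned negative with median centring. Cd40lg was not well above background on either array. T and NK cell markers were higher in the same sample (median 3.82), and their part in the Cd40, Tnfsf14 and Ltb values was not tested.

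Further subunits and inhibitors had 2 of 10 genes at least 2-fold higher, against 11.5% of all genes, and 0 lower, against 5.52%. Their median was 0.05. Nfkbid, a nuclear IkappaB protein of lymphocytes, stood at 1.30 over 3 probes from 0.88 to 1.73, and at 0.93 with normexp. Commd1, which promotes the removal of p65 from chromatin, had a mean of 1.44 from 2 probes that disagree, at -0.49 and 3.38. Rel, the subunit of lymphocytes and myeloid cells, went from -1.70 to -0.85, a difference of 0.85, the largest of the 5 genes for DNA-binding subunits under 75th percentile scaling. The lowest were Nkrf (-0.74), Ikbip (-0.33) and Akirin2 (-0.26), the latter pair positive with the series matrix values.

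Among 20 measured regulators, most of which damp the pathway and some of which, such as Rbck1, promote it, the median was 0.32. At least 2-fold above the control were 3, against 11.5% of all genes, and as far below 0, against 5.52%. The highest were Trib3 (2.37, and 1.23 with normexp), a pseudokinase also induced by cell stress, Zc3h12a (1.86, and 0.88 with normexp), an RNase that degrades inflammatory transcripts, and Traf1 (1.37, and 0.96 with normexp). The lowest were Rbck1 (-0.63), Otulin (-0.50) and Tax1bp1 (-0.40), a subunit of the linear ubiquitin ligase, the enzyme that removes its chains and a partner of A20. Tnip1, another partner of A20, stood at 0.79 and Cyld at 0.34.

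Known NF-kappaB targets outside the 10 genes were higher more often than any other of the 5 pathway lists, which were chosen with earlier results of these data known. Of the 25 measured, 14 stood 2-fold or more above the control, against 11.5% of all genes. Only 1 stood as far below, against 5.52%, and the median was 1.29. The adhesion molecules Vcam1 and Icam1 went from 0.04 to 3.03 and from -0.60 to 1.42, differences of 2.99 and 2.01. Cxcl1 (4.84, and 3.48 with normexp) and Ptgs2 (4.30, and 2.81 with normexp) were the highest. The cytokines Il6 (2.49, and 0.94 with normexp) and Tnf (1.64) and the survival gene Bcl2a1d (1.51, uncertain because it has near-identical copies) were higher too, whereas Il1b stood at 0.77 and Sod2 at 0.30. At the low end were Lcn2 (-1.25, the only one at least 2-fold lower), Mmp9 (-0.93) and the survival gene Bcl2l1 (0.18). The endothelial adhesion molecule Sele and the cytokine Csf2 were well above background on the odor-enriched array only. They were at least 3.52-fold and at least 2.21-fold higher, bounds set by the lowest control signal well above background (-5.69). The lowest such signal on the odor-enriched array was higher (-4.66), so part of each bound is the gap between these limits. For Csf2, at -4.54 on the odor-enriched array, that is most of the bound, and for Sele, at -3.87, a smaller part. Ccl20 was not well above background on either array. Many of these targets are also induced by interferon gamma or expressed by leukocytes and vessels. Markers of T and NK cells (median 3.82) and of endothelium (1.80) were higher in the same sample. Those of microglia and macrophages (0.34) differed less, and those of neutrophils (-0.50) were mostly lower. The part of interferon gamma and of these cells in the values of the targets was not tested.

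**Figure D5:**
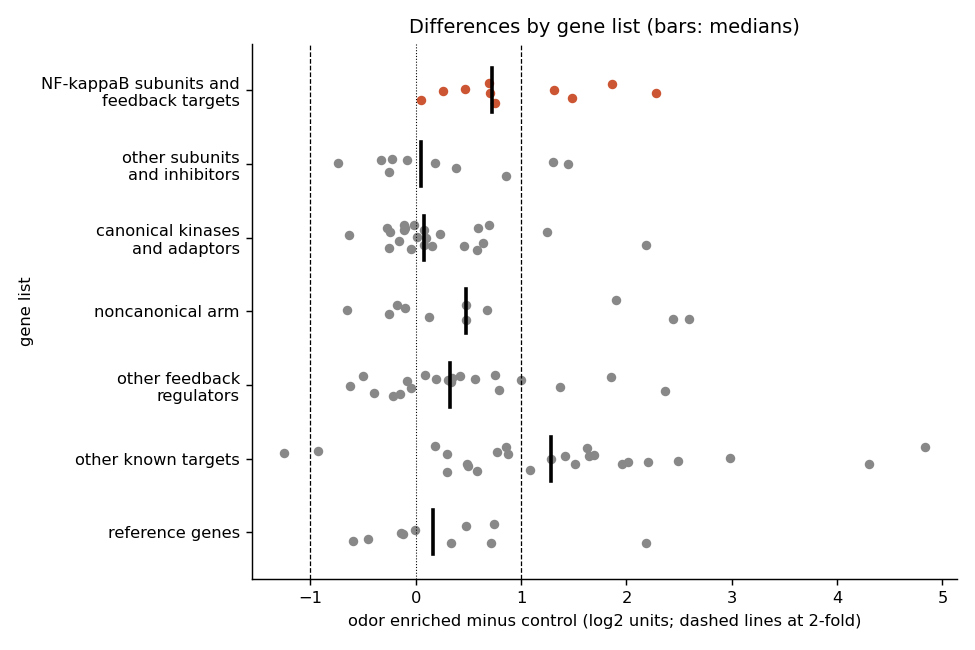
Difference of single genes (odor enriched minus control, log2 units) for the 10 NF-kappaB genes (red) and for 6 further lists (grey), with black bars at the medians and dashed lines at 2-fold. The median is 0.07 for the canonical kinases and adaptors, 0.73 for the 10 genes and 1.29 for the other known targets.

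Interferon gamma signalling, which shares targets such as Irf1 with NF-kappaB, had 4 of 8 genes at least 2-fold higher, against 11.5% of all genes. Its median was 1.16. Ifng, the cytokine, went from -4.10 to 3.91, a difference of 8.00, and of 5.82 with normexp. Its target Irf1 stood at 2.21 and Socs1, a feedback inhibitor, at 1.72, while Ifngr1 (0.59), Ifngr2 (0.27), Jak2 (0.29) and Jak1 (0.14) were under 2-fold. Jak1 turned negative with median centring. The part of T and NK cell RNA in the Ifng value was not tested. For microglia and macrophages the marker median was 0.34, and 1 of 8 genes exceeded 2-fold. For neutrophils it was -0.50, with 1 of 6 genes above and 1 below by 2-fold or more.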

How the data were processed

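The olfactory bulb RNA of 1 control and 1 odor-enriched mouse was compared. Per the file headers, the authors' spot intensities come from Agilent Feature Extraction 11.5.1.1 and are background-subtracted and detrended within each array, with no normalization across them. A deposited value table is in log2 and, judged from its numbers, equals the log2 processed signal minus 1 constant per array of unstated origin, with medians of -9.48 and -8.98. It served as an alternative.

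Outlier-flagged spots (122 and 183) were left out, the log2 signals of a probe's spots were averaged, and the array's 75th percentile over 56593 probes (7.97 and 7.66) was subtracted. Probes well above background in both mice were averaged per gene. Genes above background on 1 array only got a bound against the other array's lowest such signal (-5.69 control, -4.66 odor enriched). The threshold was 2-fold. Errors of single probes combine the scanner software's signal errors. No saturated spot was found, and depth is not defined for arrays: their number, 1 per condition, limits the precision. The members and lists were chosen with earlier results of these data known. Named were all 10 members, the 3 highest and 3 lowest genes of each pathway list and its genes seen on 1 array. For the kinases, noncanonical branch, regulators, targets and interferon gamma signalling, further genes were named after their values were seen. Of the marker lists, only the genes of endothelium and of T and NK cells were named. A few genes that this rule would name are not reported here.

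The alternatives changed the scaling (array median, detected probes, quantile, cyclic loess), the background correction (normexp, offset 50), the source of values, the outlier spots, the filter on dim probes, the probe used and the threshold (1.5-fold and 3-fold). Scaling on 8 E1A spike-in probes was added after seeing the data. Promoter sequences are those of RefSeq on GRCm38.p6, and probes are placed on mm9 as the scanner files give them. Python 3.11.15, numpy 2.4.6, pandas 2.3.3, matplotlib 3.10.9, R 4.3.3 and limma 3.58.1 were used, and the steps were tested on simulated data.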

Additional observations from a re-analysis of the deposited data

How the results depend on the processing

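No paired analysis was possible because each condition had 1 array. For the same reason no replicate was left out. Over the 10 settings fixed at the outset, 94 of the 100 differences of single members kept their sign and their side of 2-fold. Some of the 100 could hardly differ. No member probe was an outlier spot, and letting in probes above background on 1 array left all 10 values unchanged. Tnfaip3 and Nfkbia have 1 probe each, so the choice of probe and the filters could not change them. Bcl3 has 1 measured probe, so the choice of probe could not change it either. The 94 therefore overstates how far the settings probed the values. Relb lay below 0 with median centring (-0.12) and after quantile normalization (-0.00047), Birc3 fell under 2-fold with normexp (0.92), and with the series matrix values Nfkb2 (1.09), Nfkbiz (1.03) and Tnfaip2 (1.03) passed it, giving 7 members and a members' median of 1.06. The series matrix values put 4466 of all 23872 genes at least 2-fold higher. With the main scaling, the members at least 1.5-fold higher numbered 7, against 5072 of all 23872 genes. Those at least 3-fold higher numbered 2, against 1286.

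With E1A spike-in scaling, whose 8 probes differed from one another with an SD of 1.07, 0 members were at least 2-fold higher and 6 lower, and the members' median was -1.39. Single values were -1.65 for Nfkb1, -1.36 for Nfkb2, -1.86 for Rela, -2.07 for Relb, -0.26 for Bcl3, -0.80 for Nfkbia, -1.42 for Nfkbiz, -1.42 for Tnfaip2, -0.64 for Birc3 and 0.16 for Tnfaip3. All genes then counted 249 higher and 21530 lower, and the 5 pathway lists 2 and 66. The members' order relative to all genes cannot change under scalings that add a constant (E1A, median centring, detected probes, the series matrix values). Of the settings that could change it, no filter on dim probes left 9 of 10 members above the all-gene median, and the others 10.

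Genes at least 2-fold higher and lower, 2747 and 1317, became 1256 and 622 with normexp, 4466 and 582 with the series matrix values, and 9379 and 2294 with no filter. At 1.5-fold they were 5072 and 3891, and at 3-fold 1286 and 330. Those lower were 2061 with median centring and 2380 when 1 array above background was enough. The share of higher genes among those past 2-fold was 67.6%, against 50.9% with median centring, 88.5% with the series matrix values, 57.6% when 1 array above background was enough, 80.3% without the filter and 1.14% with E1A scaling. Pathway list genes at least 2-fold higher were 24 of 89, and 15 with normexp. Those lower were 1, and 2 with median centring, quantile normalization or the brightest probe, 0 with the series matrix values or at 3-fold, and 6 at 1.5-fold. The cause of these shifts was not tested.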
